A study of Homo sapiens with 5 samples.

Results

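The genes described here are 10 noncoding hosts of small nucleolar RNAs (snoRNAs): GAS5, SNHG1, SNHG5, SNHG6, SNHG7, SNHG8, SNHG12, SNHG15, SNHG16 and ZFAS1. They were chosen by name as snoRNA host transcripts, and all 10 were found among the 16677 genes of the deposited count table. The RNA came from HEK293, a human embryonic kidney cell line, grown under basal conditions. Cells of genotype WT gave 2 libraries (control 1 and control 2). Cells of genotype rs11607019, with a T-to-C change that the series places in SIRT3, gave 3 (variant 1, variant 2 and variant 3). The labels name no treatment or time point. Whether the libraries of a group are clones or parallel cultures is not given in the sources used here, so the p-values measure the spread between these libraries only.

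A snoRNA host gene is transcribed as a spliced precursor whose introns carry the snoRNAs. Box C/D snoRNAs (SNORD) guide ribose methylation of ribosomal RNA, and box H/ACA snoRNAs (SNORA) guide its pseudouridylation. The spliced exons remain as a long RNA with little coding capacity. In many hosts this RNA opens with a terminal oligopyrimidine (TOP) tract, the feature that ties messages of ribosomal proteins to growth signalling. Ribosomes that engage its short reading frames mark it for nonsense-mediated decay (NMD), so the level of a spliced host can differ from the output of its snoRNAs. GAS5, growth arrest-specific 5, takes its name from its accumulation in cells that stop dividing.

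RefSeq places between 1 and 11 snoRNAs inside each host. GAS5 spans 11 and SNHG1 spans 9, nearly all of box C/D. SNHG16 and ZFAS1 hold 3 each, SNORD1A, SNORD1B and SNORD1C in SNHG16 and SNORD12, SNORD12B and SNORD12C in ZFAS1. SNHG5 holds SNORD50A and SNORD50B, and SNHG6 holds SNORD87. Box H/ACA RNAs sit in SNHG7 (SNORA17A and SNORA17B), SNHG8 (SNORA24) and SNHG15 (SNORA9). SNHG12 carries 3 of box H/ACA and 1 of box C/D, SNORD99.

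The start of transcription is shown first because the TOP tract is a known feature of this class of RNA. Start windows were taken from RefSeq on GRCh38.p14, which matched 8 of the 10 genes, and SNHG6 and SNHG15 had no entry. Each line gives 40 bases before the start and 20 from it on, read along the transcribed strand. Capitals mark TATAA, the core of a TATA box, where it lies between 40 and 20 bases before the start, and a pyrimidine run from the start that opens with C and is at least 4 bases long.
GAS5 (chr1:173869026-173869085, reverse strand): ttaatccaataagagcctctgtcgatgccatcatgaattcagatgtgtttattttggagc
SNHG1 (chr11:62855866-62855925, reverse strand): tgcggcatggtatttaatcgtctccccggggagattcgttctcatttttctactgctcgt
SNHG5 (chr6:85678714-85678773, reverse strand): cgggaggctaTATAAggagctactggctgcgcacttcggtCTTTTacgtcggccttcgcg
SNHG7 (chr9:136728165-136728224, reverse strand): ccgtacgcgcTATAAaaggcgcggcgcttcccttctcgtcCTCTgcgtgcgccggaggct
SNHG8 (chr4:118278722-118278781, forward strand): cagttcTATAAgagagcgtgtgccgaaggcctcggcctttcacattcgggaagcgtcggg
SNHG12 (chr1:28581854-28581913, reverse strand): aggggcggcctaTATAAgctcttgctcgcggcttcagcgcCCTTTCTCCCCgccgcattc
SNHG16 (chr17:76557724-76557783, forward strand): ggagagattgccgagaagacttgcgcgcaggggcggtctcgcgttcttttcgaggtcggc
ZFAS1 (chr20:49278602-49278661, forward strand): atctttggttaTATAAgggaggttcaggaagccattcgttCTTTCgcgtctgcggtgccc

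SNHG5, SNHG7, SNHG12 and ZFAS1 held both features. TATAA lay 28 to 34 bases before the start in 5 of the 8 windows, where 4.07% of all 27305 start windows hold it. Its reverse complement, TTATA, was found in the same stretch of 1 window, that of ZFAS1, where it overlaps TATAA, and in 1.58% of all windows. A pyrimidine start was found in 4 of the 8 and in 5.45% of all windows. Both together were found in 4 of the 8 and in 0.128% of all windows. Over the 10934 windows of genes in the count table the shares were 2.57% for TATAA, 6.63% for the pyrimidine start and 0.238% for both. The pyrimidine run was read on the transcribed strand only. Among 17 other noncoding snoRNA hosts with a window, 5 had the pyrimidine start and 1 also had TATAA. Among 30 protein-coding hosts, 15 had the pyrimidine start and 2 had both. Among 12 messages with a described TOP tract, 9 had the pyrimidine start and 3 had both. The run of SNHG1 is 3 bases long, 1 short of the rule, and that of SNHG8 ends after its first base. The RefSeq start of GAS5 lies upstream of the GENCODE gene, which begins at 173868882. Those of SNHG12 (28581873) and ZFAS1 (49278642) lie inside the GENCODE genes, which begin at 28583132 and 49278178. These are matches of letters at annotated starts, and the start used in these cells was not measured.

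Levels are given as CPM, the count scaled to the size of its library, after composition scaling by TMM, the trimmed mean of M-values. The libraries held 17122569 to 17596084 counts, and the 10 genes together took 0.0445% to 0.0666% of them. Every gene had at least 179 counts in every library. All 10 passed the filter on low counts, and with such counts in both groups none entered through 1 group alone. Of 11 HEK293 markers listed, 6 were in the count table. That table holds no count under 3, so detection of its genes in every library was given in advance. PAX2 stood at 9.94 to 22.0 CPM, LHX1 at 9.54 to 21.1 and KRT18 at 45.5 to 95.1 CPM. EPCAM stood at 53.1 to 208, KRT8 at 226 to 371 and VIM at 328 to 618 CPM. Of 13 markers of blood, endothelial, stromal, liver and glial cells, 2 were in the count table. These were COL1A1, at 28.4 to 46.3 CPM, and GFAP, at 0.289 to 2.17 CPM.

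Set against the length of the merged GENCODE 29 exons, the mean level over the 5 libraries spanned 4.81 to 38.5 CPM per kb. SNHG8 stood at 38.5 CPM per kb (26.9 to 59.8 over the libraries) and SNHG5 at 36.0 (27.8 to 48.6). SNHG1 at 22.2, GAS5 at 21.7, SNHG15 at 21.6, SNHG6 at 21.4 and SNHG7 at 21.0 CPM per kb were next. SNHG12 at 7.03, ZFAS1 at 5.80 and SNHG16 at 4.81 CPM per kb were lowest. SNHG12, ZFAS1 and SNHG16 reached at most 9.93 CPM per kb in any library, below the 14.5 that was the lowest value of the other 7. The ranges of SNHG8 and SNHG5 overlapped each other and those of SNHG6 and SNHG7, but lay above those of SNHG1 (19.5 to 24.1), GAS5 (16.7 to 24.9) and SNHG15 (18.7 to 23.4). The ranges of SNHG1, GAS5, SNHG15, SNHG6 and SNHG7 overlapped, as did those of the lowest 3, so the ranges give no order within these sets. All these ranges run across libraries, and the genes were not compared within each library. The merged exons include retained introns, which are frequent in these genes (GAS5 has 29 annotated transcripts). With the longest transcript as the length instead, SNHG5 led at 97.8 CPM per kb, SNHG8 had 52.9 and GAS5 had 46.5, and SNHG16 was again lowest at 7.16.

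**Figure D1:**
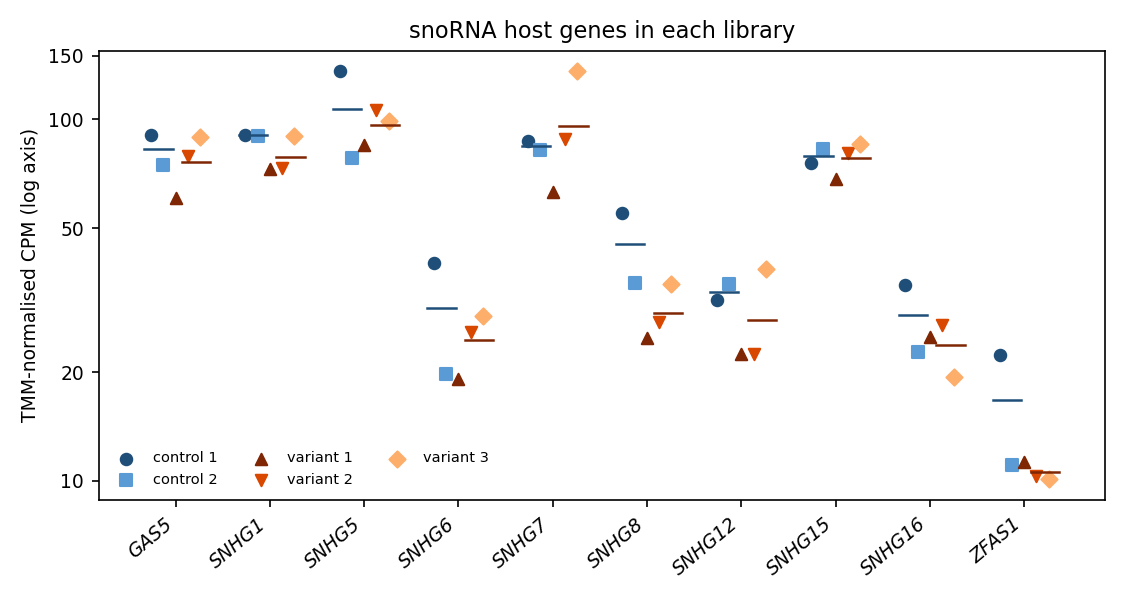
TMM-normalised CPM (log axis) of the 10 host genes in the 2 control and 3 variant libraries, 1 symbol per library, with group means as short bars. Control 1 lies above the other 4 libraries for 7 genes, and the groups overlap for 8 genes.

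None of the hosts passed the threshold of 0.05 on the adjusted p in the quasi-likelihood test of edgeR, and 0 did with DESeq2 or limma-voom. The share of all 16310 tested genes past that threshold was also 0% with edgeR. SNHG8 and ZFAS1, 2 of the 10, had an unadjusted p under 0.05, beside 7.62% of all tested genes. Both were lower in the variant, as were 3.51% of all tested genes at that level. With the replicate number as a block the pair was SNHG8 and SNHG12, beside 9.55% of all tested genes. Variant 3 has no control library of its number, so under the block it adds nothing to the group difference. Fitted log2 fold changes were below 0 for 9 of the 10 hosts, beside 49.5% of all tested genes, with a median of −0.23 beside 0.00 over all tested genes. This balance rested on the libraries compared: 5 of the 10 were higher in the variant, with a median of −0.03, without control 1, and 3 were higher, with a median of −0.14, without variant 1. The groups did not overlap for 2 of the 10, SNHG1 and SNHG8, beside 24.8% of all tested genes.

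GC content moved with the same comparison. The 3618 expressed genes of lowest GC content (mean log2 CPM above 3, transcripts of 30.2% to 43.8% GC) had a median deviation of 0.18 in control 1 and −0.13 in variant 3, and a median log2 fold change of −0.13. The longest transcripts of GAS5, SNHG1 and SNHG6 fall in that range. The 3618 expressed genes of highest GC content (53.4% to 74.4%) went the other way. Their median deviation was −0.12 in control 1 and 0.10 in variant 3, and their median log2 fold change was 0.10. SNHG7, SNHG12 and ZFAS1 fall there, with deviations of −0.02, 0.11 and 0.84 in control 1. The other 4 hosts fall in the range between, where the median log2 fold change was 0.01. Once each library was corrected for GC content and transcript length, 4 of the 10 hosts were higher in the variant and the median log2 fold change was −0.07. GAS5 then stood at 0.07, SNHG5 at 0.01 and SNHG6 at 0.03, each with its sign turned.

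The clearest pattern among the hosts ran between libraries rather than between groups. Deviations are log2 CPM minus the mean of the 5 libraries. Control 1 was the highest library for 7 of the 10 hosts, beside 26.0% of the 10864 tested genes with a mean log2 CPM above 3. Variant 1 was the lowest library for 7 of the 10, beside 20.7%, and lay below the mean for all 10, beside 48.1%. The median deviation of the 10 was 0.34 in control 1, −0.08 in control 2, −0.29 in variant 1, 0.00 in variant 2 and 0.12 in variant 3. It was 0.27, −0.10, −0.25, −0.02 and 0.13 in the same order after the correction for GC content and length. Summed over the 10 genes the level was 664 and 532 CPM in the control libraries and 453, 541 and 632 CPM in variant 1, variant 2 and variant 3. The group means of the sum were 598 ± 93.3 CPM (SD, n = 2) and 542 ± 89.5 CPM (SD, n = 3), and the difference was smaller than the spread within either group.

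Control 1 also stood apart at 4 of the 6 HEK293 markers, in the opposite direction. It was the lowest library for these 4, VIM, KRT8, KRT18 and EPCAM. PAX2 and LHX1 went the same way as the hosts in control 1, with deviations of 0.44 and 0.21. Their lowest library was variant 1, as for most hosts, but their highest was variant 3 and not control 1. EPCAM, an epithelial adhesion protein, had 53.1 CPM in control 1 and 208 CPM in control 2, and KRT18, a keratin, had 45.5 and 95.1 CPM. Summed over the 6 the level was 692 and 1115 CPM in the control libraries and 969, 916 and 1229 CPM in variant 1, variant 2 and variant 3. The median deviation of the 6 was −0.41, 0.26, −0.13, 0.00 and 0.42 in the same order, where that of the hosts was highest in control 1. COL1A1 and GFAP both had their highest level in control 2. The part of these differences in the host pattern was not tested.

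**Figure D2:**
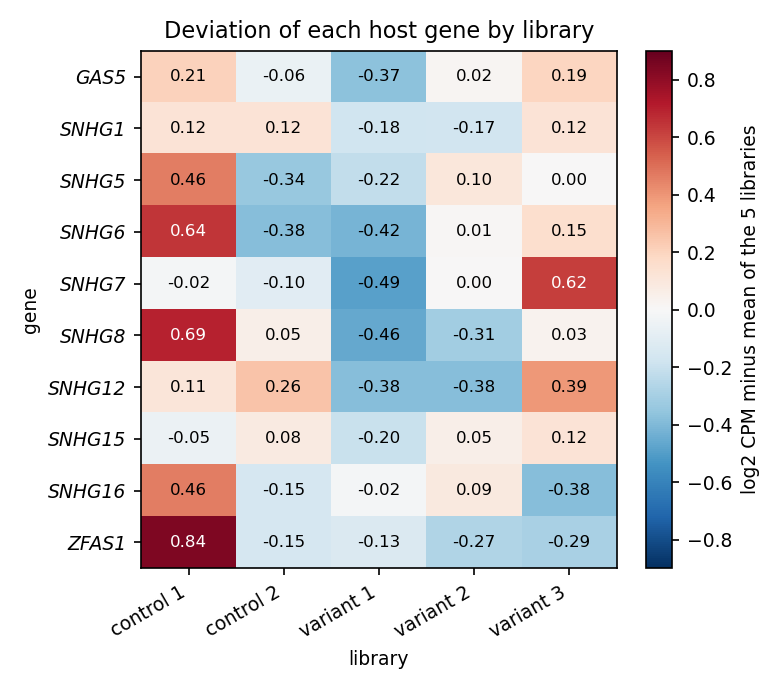
Deviation of each host gene (rows) in each library (columns), as log2 CPM minus the mean of the 5 libraries, from blue (below) to red (above). Variant 1 is below 0 in every row, and control 1 reaches 0.84 for ZFAS1 and 0.69 for SNHG8.

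The control libraries differed from each other by at least 1.5-fold at 5 of the 10 hosts, SNHG5, SNHG6, SNHG8, SNHG16 and ZFAS1, each higher in control 1. A control 1 level at least 1.5-fold that of control 2 was seen at 4.48% of the expressed genes. From highest to lowest library the hosts spanned a median of 1.77-fold, beside 1.45-fold over the expressed genes. Set against control 1, 10 of the 10 hosts were lower in variant 1, 8 in variant 2 and 7 in variant 3. Set against control 2 the counts were 7, 5 and 4, and 8 of the 10 were lower in control 2 than in control 1.

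GAS5 (ENSG00000234741, chromosome 1, 173863900 to 173868882, reverse strand) hosts 10 box C/D RNAs and SNORA103. It stood at 90.6 and 75.0 CPM in control 1 and control 2, and at 60.5, 79.1 and 89.4 CPM in variant 1, variant 2 and variant 3. The groups overlapped, and the highest variant library lay just under the highest control library. Group means were 82.8 ± 11.0 CPM (SD, n = 2) and 76.3 ± 14.6 CPM (SD, n = 3). The log2 fold change came to −0.12 (95% interval −0.56 to 0.32, edgeR's adjusted p = 0.898), so a change of either sign up to about those bounds was not resolved.

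SNHG1 (ENSG00000255717, chromosome 11, 62851988 to 62855914, reverse strand), host of SNORD22 and SNORD25 to SNORD31, was the steadiest of the 10 beside SNHG15. Its highest library exceeded its lowest by 1.24-fold, and that of SNHG15 by 1.25-fold. SNHG1 stood at 90.6 and 90.1 CPM in the control libraries and 73.1, 73.6 and 90.0 CPM across the variant libraries. The groups did not overlap, but variant 3 nearly tied with control 2. Before TMM scaling variant 3 stood above control 2, at 90.7 and 90.2 CPM, so the groups then overlapped. Variant against control, the log2 fold change was −0.20 (95% interval −0.56 to 0.17, edgeR's adjusted p = 0.770).

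SNHG5 (ENSG00000203875, chromosome 6, 85660950 to 85678748, reverse strand) was the most abundant host by mean CPM over the 5 libraries (101), although SNHG1, SNHG7 and SNHG15 stood above it in control 2 and SNHG7 in variant 3. It had 136 and 78.0 CPM in the control libraries and 85.2, 106 and 99.0 CPM across the variant libraries, so the variant libraries all fell between the control values. Its log2 fold change was −0.15 (95% interval −0.66 to 0.36), and it was 0.31 without control 1 and −0.50 without control 2.

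SNHG6 (ENSG00000245910, chromosome 8, 66921684 to 66926398, reverse strand) was also highest in control 1. Its values were 40.2 and 19.8 CPM in the control libraries and 19.2, 25.8 and 28.6 CPM across the variant libraries. Control 1 stood apart, and control 2 and variant 1 were lowest. For SNHG6 the log2 fold change was −0.29 (95% interval −0.96 to 0.38), and 0.31 without control 1 and −0.71 without control 2. Of its merged exon length 29.3% is shared with MCMDC2 on the opposite strand, which held only 8 to 25 counts beside 332 to 690 for SNHG6.

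SNHG8 (ENSG00000269893, chromosome 4, 118278709 to 118279823, forward strand), host of SNORA24, had the smallest p of the 10. It stood at 55.2 and 35.3 CPM in the control libraries and at 24.8, 27.5 and 35.0 CPM across the variant libraries. All 3 variant libraries were below both control libraries, but variant 3 only narrowly. The 95% Wilson intervals of its count share, before TMM scaling, overlapped at 32.7 to 38.3 CPM in control 2 and 32.6 to 38.1 CPM in variant 3. Group means were 45.2 ± 14.1 CPM (SD, n = 2) and 29.1 ± 5.27 CPM (SD, n = 3). The log2 fold change was −0.64 (SE 0.23, 95% interval −1.16 to −0.11). In edgeR's test the adjusted p was 0.616 and the unadjusted p 0.0227, and the adjusted p lay between 0.395 and 0.998 in the alternatives. Without control 1 the log2 fold change was −0.28 (unadjusted p = 0.319 in edgeR's test) and without control 2 it was −0.92 (unadjusted p = 0.00597). The unadjusted p was 0.0588 without variant 1 and 0.0583 without variant 2. After the correction for GC content and length the value was −0.49 (unadjusted p = 0.0393).

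ZFAS1 (ENSG00000177410, chromosome 20, 49278178 to 49295738, forward strand), read antisense to the start of ZNFX1, was the other host with a small p. It had 22.3 CPM in control 1 and 11.1 CPM in control 2, and 11.3, 10.3 and 10.1 CPM across the variant libraries. A single library was high and the other 4 lay together, with variant 1 above control 2, so the groups overlapped. The log2 fold change was −0.66 (SE 0.29, 95% interval −1.31 to −0.01). In edgeR's test the adjusted p was 0.649 and the unadjusted p 0.0475. Without control 1 it was −0.08 (unadjusted p = 0.798 in edgeR's test) and without control 2 it was −1.08 (unadjusted p = 0.00293, adjusted p = 0.415). The unadjusted p was above 0.05 when any of the other 3 libraries was left out, at 0.0595 to 0.0935, and it was 0.105 with the replicate block. Its adjusted p lay between 0.415 and 0.998 in the alternatives. The 382 counts of ZFAS1 in control 1 compare with 179 to 195 in the other libraries, and the Wilson intervals of 20.2 to 24.7 CPM in control 1 and 9.68 to 12.8 CPM in control 2 did not meet. ZNFX1, which shares 11.1% of the merged exon length of ZFAS1, was lower in both control libraries, at 23.5 and 26.4 CPM, than in the variant libraries, at 40.5, 27.3 and 29.3 CPM (adjusted p = 0.700 in edgeR's test).

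SNHG7 (ENSG00000233016, chromosome 9, 136721366 to 136728184, reverse strand) was the only host with a fitted value above 0. It stood at 87.0 and 82.3 CPM in the control libraries and at 62.9, 88.3 and 136 CPM across the variant libraries. The variant group held both the lowest and the highest library, variant 1 and variant 3. A log2 fold change of 0.18 (95% interval −0.44 to 0.80, edgeR's adjusted p = 0.889) was fitted, and it was −0.16 without variant 3 and 0.41 without variant 1. Of its merged exons 25.2% overlap DIPK1B on the opposite strand (FAM69B in GENCODE 29), which encodes a secretory-pathway protein. DIPK1B had 98.6 and 91.0 CPM in the control libraries and 76.7, 123 and 126 CPM across the variant libraries. It shared with SNHG7 its lowest library, variant 1, and its highest, variant 3. The library protocol is strand-specific, but whether the counting used the strand is not given in the sources used here, so reads of these genes cannot be told apart.

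Expressed genes of chromosome 9 also moved with the groups. Their median log2 fold change was 0.36, and their median deviation was −0.21, −0.19, −0.05, 0.28 and 0.22 in control 1, control 2, variant 1, variant 2 and variant 3. The deviation of SNHG7 was −0.02, −0.10, −0.49, 0.00 and 0.62 in the same order. SNHG7 thus lay below its chromosome in variant 1 and variant 2 and above it in both control libraries and in variant 3. The part of the chromosome in the level of SNHG7 was not tested. The other hosts lie on chromosomes whose median log2 fold change was between −0.11 and 0.19, and the 0.19 of chromosome 20 had the opposite sign to ZFAS1. The median deviation of chromosome 20 was −0.15, −0.08, 0.39, −0.13 and −0.07 in the same order, so variant 1 alone was raised. ZFAS1 had a deviation of −0.13 in variant 1.

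**Figure D3:**
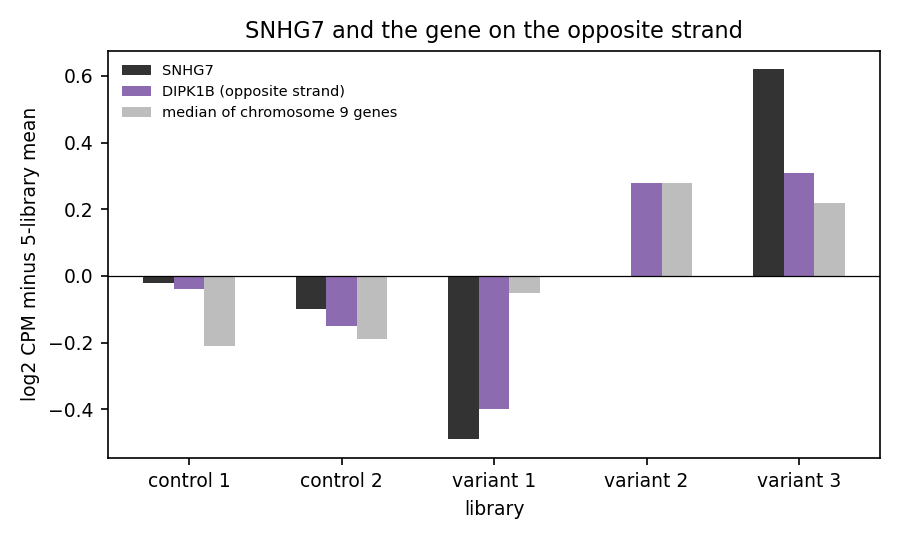
Deviation (log2 CPM minus the mean of the 5 libraries) of SNHG7, of DIPK1B on the opposite strand and of the median expressed gene of chromosome 9, by library. SNHG7 reaches −0.49 in variant 1, where the chromosome median is −0.05, and 0.62 in variant 3, where it is 0.22.

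SNHG12 (ENSG00000197989, chromosome 1, 28578538 to 28583132, reverse strand) had 31.6 and 35.1 CPM in the control libraries and 22.4, 22.4 and 38.5 CPM across the variant libraries. Variant 1 and variant 2 were equal and low, and variant 3 was the highest of all. Its log2 fold change was −0.26 (95% interval −0.84 to 0.31). It was −0.57 without variant 3 (edgeR's unadjusted p = 0.0171, adjusted p = 0.427), but −0.13 without variant 1 and without variant 2. With the replicate number as a block the log2 fold change was also −0.57 (edgeR's unadjusted p = 0.0197, adjusted p = 0.488). Variant 3 has no control library of its number, so the block fit and the fit without variant 3 are not independent. Of the snoRNAs inside the 10 hosts, SNORD99, which lies within SNHG12, was the 1 analysed here. It held 8 and 9 counts in the control libraries and 8, 11 and 16 in the variant libraries, too few to set against its host. A library made from messenger RNA recovers few small RNAs, and snoRNA output was not analysed here.

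SNHG15 (ENSG00000232956, chromosome 7, 44983023 to 44986961, reverse strand), a transcript known for a short half-life, varied least between groups. Its level was 75.8 and 82.9 CPM in the control libraries and 68.4, 80.9 and 85.3 CPM across the variant libraries. The control values lay inside the variant range. The log2 fold change was −0.02 with a 95% interval of −0.39 to 0.35.

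SNHG16 (ENSG00000163597, chromosome 17, 76557766 to 76565348, forward strand), host of the SNORD1 group, had 34.8 and 22.8 CPM in the control libraries and 25.0, 27.0 and 19.4 CPM across the variant libraries. Control 1 was again the highest, but the lowest was variant 3, a library in which SNHG7 and SNHG12 were at their highest. The log2 fold change was −0.27 (95% interval −0.80 to 0.26), and 0.07 without control 1. It shares 30.6% of its merged exons with ENSG00000284526 on the opposite strand, which held 11 to 30 counts beside 344 to 597 for SNHG16.

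**Figure D4:**
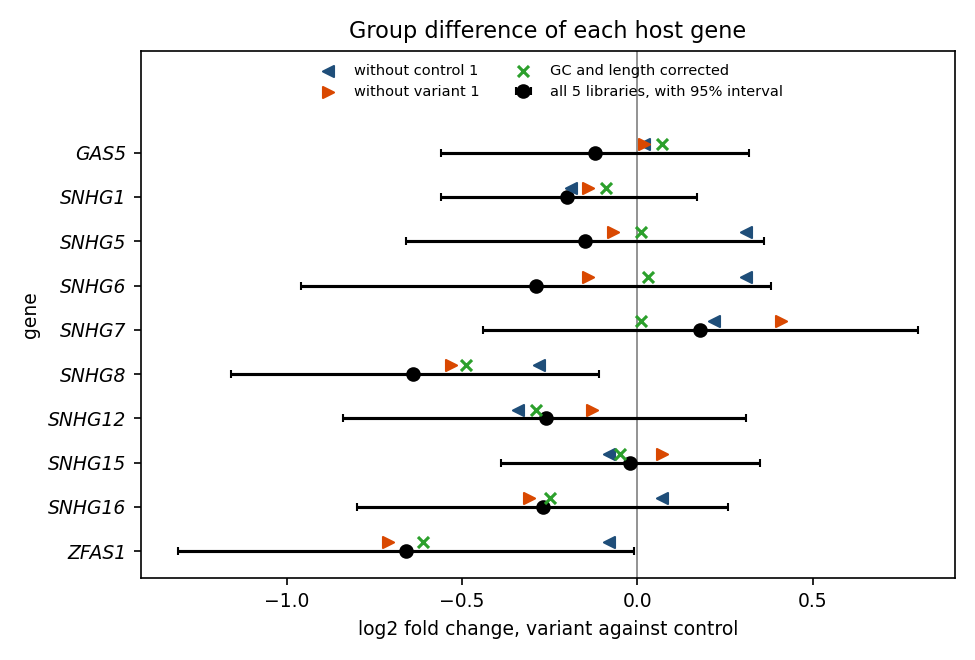
Log2 fold change of each host gene, variant against control, with its 95% interval from edgeR over all 5 libraries (black), and the value without control 1, without variant 1 and after correction for GC content and length. ZFAS1 moves from −0.66 to −0.08 and SNHG5 from −0.15 to 0.31 without control 1.

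The hosts also differed among themselves in how they moved. GAS5 kept a nearly fixed share of the summed CPM of the 10, between 13.4% and 14.6%. The share of SNHG7 ran from 13.1% in control 1 to 21.6% in variant 3, that of SNHG5 from 14.7% in control 2 to 20.5% in control 1, and that of ZFAS1 from 1.6% in variant 3 to 3.4% in control 1. SNHG5, SNHG6, SNHG8, SNHG16 and ZFAS1 had their peak in control 1 and were at least 1.5-fold lower in control 2. GAS5 and SNHG1 were also highest in control 1, with variant 3 close behind. SNHG7, SNHG12 and SNHG15 had their peak in variant 3. The pyrimidine start was found in both sorts, in SNHG5 and ZFAS1 as in SNHG7 and SNHG12.

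The expressed genes closest to the mean profile of the 10, by Euclidean distance of centred log2 CPM over the 5 libraries among 10854 genes, were RPS2P5 (distance 0.040), SEM1 (0.041), LIG4 (0.060), ELP4 (0.073) and RPS2P46 (0.085). RPS2P5 and RPS2P46 are annotated as copies of the ribosomal protein gene RPS2, with which short reads can be shared. RPS2P5 had 210 and 157 CPM in the control libraries and 133, 150 and 172 CPM across the variant libraries. This list is a description over 5 libraries.

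Of 20 other noncoding snoRNA hosts listed, 16 were in the table and all 16 were tested. In edgeR's test 0 passed the adjusted threshold and 2 had an unadjusted p under 0.05, 1 in each direction. The share of all tested genes at that level, 7.62%, stands beside this count and those of the lists that follow. SNHG4 had 45.5 and 45.2 CPM in the control libraries and 25.5, 23.9 and 36.9 CPM across the variant libraries (log2 fold change −0.66, SE 0.21, edgeR's adjusted p = 0.616). SNHG32 had 24.6 and 18.7 CPM and then 30.2, 34.3 and 34.8 CPM (0.61, SE 0.20, adjusted p = 0.616 in edgeR). Of the 16, 7 were higher and 9 lower in the variant, with a median of −0.12. Their median deviation was 0.11 in control 1 and −0.18 in variant 1, the highest and the lowest library as for the 10. EPB41L4A-AS1, host of a box H/ACA RNA, came 24th of 10854 in likeness to the profile of the 10, and SNHG10 came 9627th.

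Of 40 protein-coding snoRNA hosts, mostly genes of ribosomal proteins and translation factors, 26 were lower and 14 higher in the variant, with a median log2 fold change of −0.08. None of the 40 passed the adjusted threshold in edgeR's test. An unadjusted p under 0.05 was seen at 3 of them, all lower, which is near the 7.62% of all tested genes. These were RPL21 (log2 fold change −0.66, SE 0.24), RPL39 (−0.60, SE 0.26) and RPL23 (−0.43, SE 0.19), components of the large ribosomal subunit. RPL39 stood at 259 and 188 CPM in the control libraries and 94.0, 168 and 179 CPM across the variant libraries, and its highest and lowest libraries were those of GAS5. Ribosomal protein genes have many processed copies, so their levels are uncertain. At the other end RPL10 had a log2 fold change of 0.20 (SE 0.21).

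Of 18 proteins of snoRNA particles and their assembly, 11 were lower and 7 higher, with a median of −0.11, and 0 passed the adjusted threshold in edgeR's test. GAR1, a core protein of box H/ACA particles, was the 1 gene with an unadjusted p under 0.05 (log2 fold change −0.42, SE 0.18, adjusted p = 0.637 in edgeR). It had 40.7 and 34.7 CPM in the control libraries and 29.2, 26.0 and 29.2 CPM across the variant libraries. DKC1, the pseudouridine synthase of the same particles and itself a snoRNA host, was at the other end with 0.16 (SE 0.16).

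EEF1B2, EEF2, NOP56, DKC1, CDKN1A and VIM stand on more than one list, VIM among the TOP messages and the HEK293 markers. The decay machinery that limits spliced hosts was examined gene by gene. Of 24 factors of NMD and the exon junction complex, 0 passed the adjusted threshold in edgeR's test and 0 had an unadjusted p under 0.05, with 10 higher, 14 lower and a median of −0.05. The extremes were SMG6, the endonuclease of the pathway, at 0.29 (SE 0.17), and MAGOHB, a junction complex subunit, at −0.42 (SE 0.22). Of 27 genes whose transcripts are described NMD targets, 12 were higher and 15 lower, with a median of −0.05. SLC7A11, the cystine transporter subunit, and SRSF2, a splicing factor with an NMD-sensitive isoform, had an unadjusted p under 0.05. SLC7A11 had 42.8 and 31.0 CPM in the control libraries and 18.2, 29.6 and 18.4 CPM across the variant libraries (log2 fold change −0.74, SE 0.26, adjusted p = 0.616 in edgeR). SRSF2 was at −0.33 (SE 0.14), and the highest of the list was UPP1, uridine phosphorylase, at 0.46 (SE 0.24). In control 1, where the 10 hosts had a median deviation of 0.34, that of the NMD targets was 0.07 and that of the NMD factors was 0.02. Single NMD targets went both ways there, from −0.88 for GADD45B to 0.69 for SLC7A11, so their median does not describe each gene. Counts are per gene, so an NMD-sensitive isoform was not measured apart from the other transcripts of its gene. The activity of NMD was not tested.

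Of 28 tested genes of growth state (cell cycle, quiescence and mTOR signalling), 10 were higher and 18 lower, with a median of −0.08. KLF4, a transcription factor tied to growth arrest, was the 1 gene with an unadjusted p under 0.05, at 7.52 and 17.5 CPM in the control libraries and 28.1, 18.0 and 32.3 CPM across the variant libraries (log2 fold change 1.06, SE 0.37, adjusted p = 0.616 in edgeR). MYC was lowest at −0.41 (SE 0.36). It had 58.7 and 35.0 CPM in the control libraries and 32.2, 52.6 and 21.3 CPM across the variant libraries, so the groups overlapped. Of 17 tested messages with a described TOP tract, 12 were lower and 5 higher, with a median of −0.05. EIF3E (−0.53, SE 0.18) and NPM1 (−0.32, SE 0.13) were lower and EEF1D (0.44, SE 0.15) was higher at an unadjusted p under 0.05, and 0 passed the adjusted threshold in edgeR's test. EIF3E, a subunit of initiation factor eIF3, had 230 and 151 CPM in the control libraries and 127, 131 and 137 CPM across the variant libraries. As for the hosts, control 1 was the highest library and variant 1 the lowest.

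**Figure D5:**
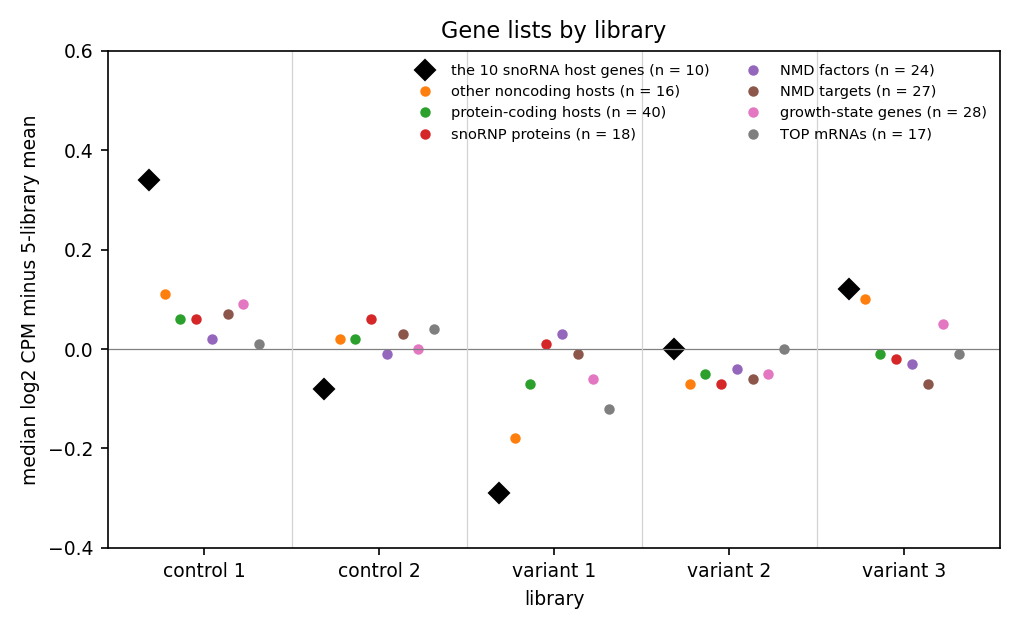
Median deviation (log2 CPM minus the mean of the 5 libraries) of the 10 host genes and of 7 comparison lists in each library. The 10 hosts range from 0.34 in control 1 to −0.29 in variant 1, and the other noncoding hosts from 0.11 to −0.18 in the same libraries.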

How the data were processed

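The authors deposited unnormalised counts (whole numbers from 3 upward) for 16677 Ensembl identifiers in 5 libraries, as the file's values show. Total RNA was taken with TRIzol and DNBSEQ strand-specific mRNA libraries were read single-end, per the labels' protocols. HISAT2, SAMtools, HTSeq and hg38 are named in the submitters' processing notes; versions, gene annotation and strand setting are not given in the sources used here. Genes were named from a gene name table (16627 identifiers) and placed with GENCODE release 29 on GRCh38, the same assembly as hg38.

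Counts were filtered with filterByExpr (16310 genes kept), scaled by TMM (factors 0.983 to 1.01) and tested with the quasi-likelihood test of edgeR 4.0.16 in R 4.3.3 (robust, group only, all 5 libraries, two-sided), with Benjamini-Hochberg adjustment over all tested genes at 0.05. SEs and 95% intervals come from that fit. Deviations use log2 CPM with a prior count of 2. Wilson intervals cover counting error only. The fits were tested on simulated data of the same group sizes. There edgeR recovered 8% of 50 genes changed 1.5-fold and 62% of 50 genes changed 2-fold, at the adjusted threshold. Changes of 1.5-fold were thus mostly missed, and 16 of its 144 calls were false.

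Alternatives were RLE and upper-quartile scaling, no filter, at least 10 counts in every library, DESeq2 1.42.0, limma-voom (limma 3.58.1), a replicate block, the omission of each library in turn, and offsets per library for GC content and length (splines with 5 degrees of freedom). The genes and lists were chosen with earlier results of these data known. From each list were named the genes with an unadjusted p under 0.05 (at most 4) and the highest and lowest fold change. Genes singled out beyond that rule were chosen after their values were seen.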

Additional observations from a re-analysis of the deposited data

How the results depend on the processing

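No host gene passed the adjusted threshold in any of the 13 alternatives. Of 130 fitted values of single hosts under them, 118 kept their direction and 12 changed sign. SNHG1, SNHG8, SNHG12 and ZFAS1 stayed below 0 in all 13. With the replicate number as a block, SNHG7 was −0.18, 0 of the 10 hosts were higher in the variant and the median was −0.28. The hosts at an unadjusted p under 0.05 were then SNHG8 and SNHG12 in place of SNHG8 and ZFAS1. The same pair was found without variant 3. Under the block that library, with no control of its number, adds nothing to the group difference, so these fits are not independent. The deviations of same-numbered libraries correlated at 0.12 and −0.113 over genes, and the labels do not say what the number marks. After the GC and length correction GAS5 was 0.07, SNHG5 0.01 and SNHG6 0.03, with 4 hosts higher. In that fit 1 host had an unadjusted p under 0.05, beside 6.34% of all tested genes. The groups did not overlap for 0 hosts, a count whose share over all genes was not computed after the correction. limma-voom had 1 host at an unadjusted p under 0.05, beside 7.24% of all tested genes. DESeq2's Wald test gave 32 genes of the whole table an adjusted p under 0.05 (0.213%), none a host, where edgeR's gave 0, with 1243 at an unadjusted p under 0.05; the cause was not tested.

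Leaving out each library in turn, the hosts higher in the variant ran from 0 to 5, those at an unadjusted p under 0.05 from 0 to 4 (beside 3.34% to 10% of all tested genes), those with groups that did not overlap from 2 to 7 (beside 34.1% to 56.9%, the 7 without control 2 beside 56.9%), the median from −0.37 to −0.03, and the genes of the whole table past the threshold from 0 to 4. In the same fits GAS5 ran from −0.25 to 0.02, SNHG5 from −0.50 to 0.31, SNHG6 from −0.71 to 0.31, SNHG7 from −0.16 to 0.41, SNHG8 from −0.92 to −0.28, SNHG12 from −0.57 to −0.13, SNHG15 from −0.09 to 0.07, SNHG16 from −0.55 to 0.07 and ZFAS1 from −1.08 to −0.08. The upper value came without control 1, except for GAS5 (also without variant 1), SNHG7 and SNHG15 (without variant 1) and SNHG12 (without variant 1 or variant 2). Without control 2 SNHG15 was 0.05, and without variant 3 SNHG7 was −0.16. The fits with 1 control library assume that it varies like the variant libraries. The 2 and 3 libraries of the groups limit the precision of every value.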
